A study of Rattus norvegicus with 2 samples.

Results

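The genes described here are those by which natural killer (NK) cells and cytotoxic T cells kill a target: granzymes, perforin, a granule membrane protein, NK receptors and the Fas ligand. The 10 genes were taken by name (Gzma, Gzmb, Gzmm, Prf1, Nkg7, Klrd1, Klrk1, Klrb1a, Ncr1 and Faslg), and a probe was assigned to a gene through the RefSeq accession that the array gives for it. Of the 10 genes, 9 were matched, each by 1 probe, among 8898 genes that could be named on the array, and no probe was matched to Gzmm. The 9 probes occupied 18 of 43379 non-control features, since the probe of Faslg was printed on 10 spots and the other 8 probes on 1 spot each. The measured tissue was whole blood of male rats, 7 weeks old, which were given lavender oil (LO) at 5 mg/kg in 10% ethanol, or the 10% ethanol diluent alone at 0 mg/kg, into the stomach daily for 13 days, with blood taken on day 14. Both groups therefore received ethanol. Each group held 6 of the 12 rats, and the 6 RNA samples of each group were mixed to give 1 pool. The strain is given as F334 in one label field and as Wistar in another, and the labels name the portal vein beside the heart as a source of blood, where the methods name the heart alone.

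The 2 pools were hybridised together on an Agilent rat whole genome array, with the LO pool in the red dye Cy5 and the control pool in the green dye Cy3 (array 1), and again on a second array with the dyes exchanged (array 2). The arrays are a technical dye swap of 1 LO pool and 1 control pool and count as 1 replicate. They hold no spread between rats, so no test between conditions was made. Ratios were expressed as LO over control on both arrays, following the dyes that the labels name, and the mean over the arrays is the geometric mean, in which a dye effect of equal size on both arrays cancels. Between 44.8% and 50.3% of the features were rated well above background in each of the 4 channels (2 pools on 2 arrays), and 15371 of 41009 probes in all 4. Across these 15371 probes, array 1 and array 2 had a Pearson r of -0.70 in their LO/control log2 ratios, so that most ratios followed the dye and not the pool. For this reason the ratios of the 9 genes are given for both arrays. The part that followed the dye is given for Prf1, Klrb1a, Klrd1 and Faslg. Many of the further genes are given by the mean alone, also some whose arrays lay on opposite sides of 1. The red cell genes Hbb (beta globin) and Alas2 (the first enzyme of heme synthesis in red cells) were among the brightest of the genes listed here, with a lowest signal of 360662 (Alas2, LO pool on array 2).

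A killer lymphocyte stores perforin and granzymes in secretory granules. On contact with a target, perforin opens the membrane and granzymes, which are serine proteases, enter the cell and start its death. A second route is the Fas ligand on the lymphocyte surface, which engages the death receptor Fas on the target. Whether an NK cell fires is set by the balance of activating receptors, such as NKG2D (Klrk1), NKp46 (Ncr1) and rat NKR-P1A (Klrb1a), and of inhibitory receptors, among them pairs of CD94 (Klrd1) with an NKG2 chain. In blood the granule genes are shared between NK cells and cytotoxic T cells, whereas Ncr1 is largely restricted to NK cells and related innate lymphocytes.

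All 9 genes were detected in both pools. Of their 36 channel readings, 36 were well above background, and 0 of their 18 features were flagged or saturated. The mean LO/control ratio lay between 0.878 (Gzma) and 1.11 (Klrk1), with a median of 0.959, beside a median of 0.998 over all 15371 probes above background in all 4 channels. It was below 1 for 7 of the 9 genes and above 1 for 2, beside 51.3% below 1 among these 15371 probes. Of the 7 genes, Nkg7, Klrd1 and Faslg were not below 1 on both arrays. None of the 9 genes passed 1.5-fold in the mean (0 of 9), against 0.124% of these 15371 probes. A selection was also made from the error model of the Feature Extraction software. The methods name its threshold of 0.01 and ask for opposite dye ratios on the 2 arrays, but do not say whether each array has to pass the threshold. With the threshold required here on both arrays and the same LO over control direction, 0 of the 9 genes and 0.0219% of all 41009 probes were taken. None of the 9 genes was below this threshold on array 1 or on array 2 alone. The 95% interval of the mean ratio from the error model included 1 for all 9 genes, and over the 9 genes its lowest and highest limits were 0.679 and 1.44. It left out 1 for 0.787% of the 15371 probes. These intervals cover the measurement of the spots only, not the rats. In whole blood RNA, fewer cells of a type and less RNA per cell cannot be told apart.

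**Figure D1:**
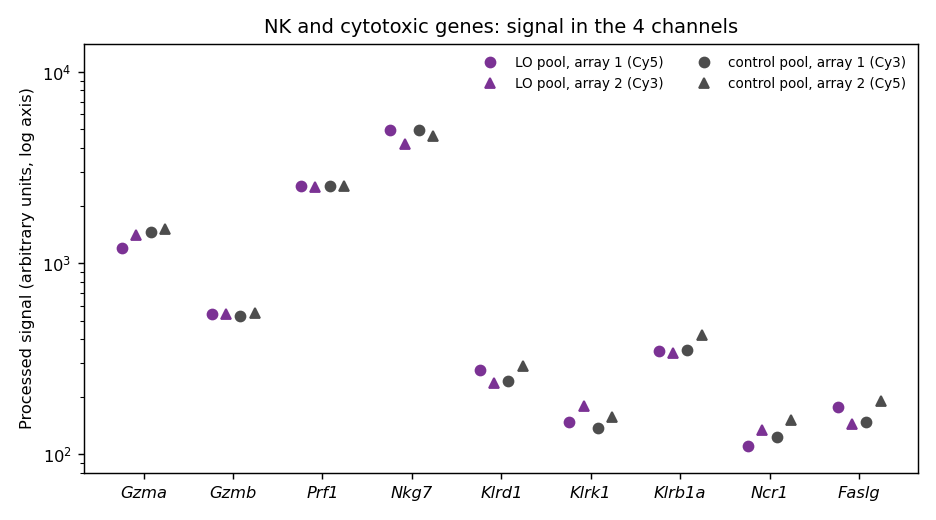
Processed signal (arbitrary units, log axis) of the 9 genes in the LO pool (purple) and the control pool (grey) on array 1 (circles) and array 2 (triangles), 1 value per probe and channel, with the mean of 10 spots for Faslg. The 4 signals of a gene lie close together, and the widest gap between the pools on 1 array is that of Faslg on array 2, with 145 against 189; levels of different probes cannot be compared.

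Prf1 encodes perforin, the pore-forming protein of the granules. Its signal in the LO pool was 2533 on array 1 and 2517 on array 2, and in the control pool 2541 and 2533. LO over control gave 0.997 on array 1 and 0.993 on array 2, for a mean of 0.995 (95% interval of the error model 0.818 to 1.21). The 4 signals were nearly equal, and the dye part of the Prf1 ratio, Cy5 over Cy3, was 1.0-fold.

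Gzma, a granzyme with trypsin-like specificity, had the lowest mean ratio. Its signal was 1207 and 1405 in the LO pool on arrays 1 and 2, and 1458 and 1510 in the control pool. Both LO signals thus lay below both control signals. Array 1 gave a ratio of 0.828 and array 2 one of 0.93, for a mean of 0.878 (0.720 to 1.07). A mean farther from 1, in either direction, was found in 11.7% of the probes above background in all 4 channels. Gzmb, the granzyme that cleaves after aspartate and activates caspases, had signals of 541 and 541 in the LO pool and of 527 and 550 in the control pool. The pools overlapped, with ratios of 1.03 and 0.984 and a mean of 1.0 (0.820 to 1.23). The interval of each of these 2 granzymes held the mean of the other.

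Nkg7 encodes a membrane protein of cytotoxic granules. It gave 4989 and 4221 in the LO pool, and 4987 and 4616 in the control pool. Array 2 was lower than array 1 for both pools, by a factor of 0.846 in the LO pool and 0.925 in the control pool. Array 1 gave a ratio of 1.0 and array 2 one of 0.914, a mean of 0.956 (0.786 to 1.16).

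Among the receptors, Ncr1 (NKp46) had 110 and 134 in the LO pool, and 123 and 152 in the control pool. The LO pool was the lower one on each array, although the pools overlapped across arrays. The ratios of 0.899 and 0.879 were close to each other, with a mean of 0.889 (0.679 to 1.16). The spot signal of Ncr1 was only 2.07 to 2.61 times its local background, and its error of the mean, 0.20 on the log2 scale, was the largest of the 9 genes.

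Klrk1, the activating receptor NKG2D, was the gene with the highest ratio. Its signal was 148 and 179 in the LO pool, and 137 and 156 in the control pool. The LO pool was higher on each array, with ratios of 1.08 and 1.15 and a mean of 1.11 (0.861 to 1.44). A mean farther from 1, in either direction, was found in 16.8% of the probes above background in all 4 channels. The spot signal of Klrk1 was only 2.24 to 2.78 times its local background. Within the same pool, and with the dyes exchanged, the signal rose from array 1 to array 2 by 1.21-fold for LO and 1.14-fold for control. The mean difference between the pools was 1.11-fold.

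Klrb1a encodes NKR-P1A, a surface protein by which rat NK cells are identified. It had 349 and 337 in the LO pool, and 351 and 422 in the control pool. The control signal on array 2 stood apart from the other 3 signals. The ratios were 0.993 and 0.800 in the order of the arrays, a mean of 0.891 (0.722 to 1.1). The dye part was 1.11-fold towards Cy5. The probe of Klrb1b, a close relative, had ratios of 0.774 and 1.16 and a mean of 0.947 (0.682 to 1.31), so that the arrays gave opposite directions there. Cross-hybridisation between members of the Klrb1, Klrc and granzyme families was not tested.

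Klrd1 (CD94), which pairs with the NKG2 chains, had 276 and 236 in the LO pool, and 241 and 291 in the control pool. On each array the pool labelled with Cy5 was the brighter one. The ratios of 1.15 and 0.811 were therefore on opposite sides of 1 and gave a mean of 0.964 (0.773 to 1.20), while the dye part was 1.19-fold towards Cy5.

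**Figure D2:**
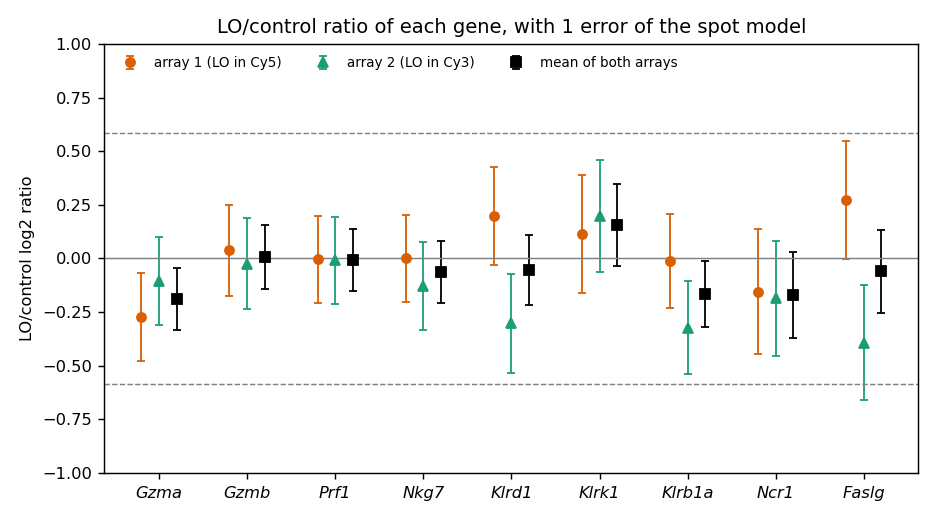
LO/control log2 ratio of the 9 genes on array 1 (orange circles), on array 2 (green triangles) and as the mean of both (black squares), with bars of 1 error of the software's error model for the spot and dashed lines at 1.5-fold. All means lie between -0.19 (Gzma) and 0.16 (Klrk1), inside the dashed lines, and the 2 arrays are farthest apart for Faslg and Klrd1.

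Faslg, the Fas ligand, was the gene with the largest dye part. Over the 10 spots of its probe the mean signal was 177 ± 12.0 (SD over spots) for LO and 148 ± 22.3 for control on array 1, and 145 ± 16.0 and 189 ± 12.2 on array 2. Array 1 gave a ratio of 1.21 and array 2 one of 0.761, with LO higher in 10 of 10 spots on array 1 and lower in 10 of 10 spots on array 2. The repeated spots thus gave the same answer within an array and the opposite answer between arrays. The dye part was 1.26-fold towards Cy5, and the mean ratio was 0.959 (0.739 to 1.24, from the error of a single spot). By spot, this mean ratio ran from 0.899 to 1.09 with a median of 0.952, and it was below 1 in 8 of 10 spots. Its SD over the spots was 0.08 on the log2 scale, beside a median SD of 0.05 over the 105 probes with repeated spots above background in all 4 channels. On array 1 a single spot had a control signal of 98.4 and a ratio of 1.72, whereas the other 9 spots had control signals of 131 or more and ratios of at most 1.28. Without this spot the ratio was 1.16 on array 1 and 0.945 in the mean.

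**Figure D3:**
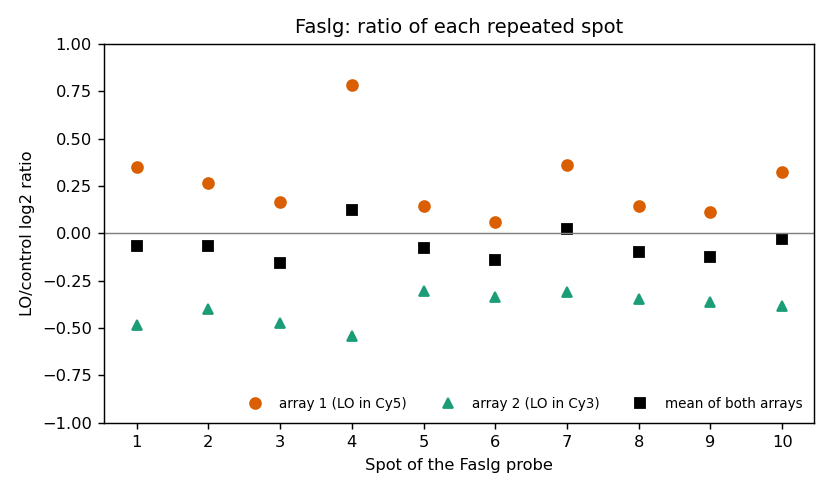
LO/control log2 ratio of each of the 10 spots of the Faslg probe on array 1 (orange circles), on array 2 (green triangles) and as their mean (black squares). Array 1 is above 0 and array 2 below 0 in all 10 spots, and the means lie between -0.15 and 0.12.

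By direction, both arrays gave a higher LO signal in 1 of the 9 genes (Klrk1) and a lower one in 4 (Gzma, Prf1, Klrb1a and Ncr1). Over all probes above background in all 4 channels, 11.7% were higher and 12.7% lower with LO on both arrays. In Prf1, and on array 1 in Klrb1a, the distance from 1 was under 0.01-fold. The count of 5 genes with 1 direction on both arrays was 4 by normexp with loess, where the mean of Prf1 was above 1, and 2 by median centring without loess. The other 4 genes (Gzmb, Nkg7, Klrd1 and Faslg) had their higher signal in Cy5 on both arrays, and 0 genes had it in Cy3, beside 39.2% and 36.5% of all these probes. The median size of the dye part was 1.05-fold over the 9 genes and 1.11-fold over all these probes, and the median size of the pool part was 1.05-fold and 1.04-fold. Both LO signals lay below both control signals in 3 of the 9 genes (Gzma, Prf1 and Klrb1a) and above them in 0. Of the 15371 probes above background in all 4 channels, 13.4% had such a gap in either direction. The higher LO signal and the lower control signal were 2533.1 and 2533.3 in Prf1, and 348.8 and 351.3 in Klrb1a. The signals of the 2 arrays were not scaled to each other. For each of the 9 genes, a larger change than its mean ratio was seen within 1 of the pools between the arrays. Between the arrays each pool also changed its dye, whereas the mean ratio is taken over both dyes, so these are unlike measures.

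**Figure D4:**
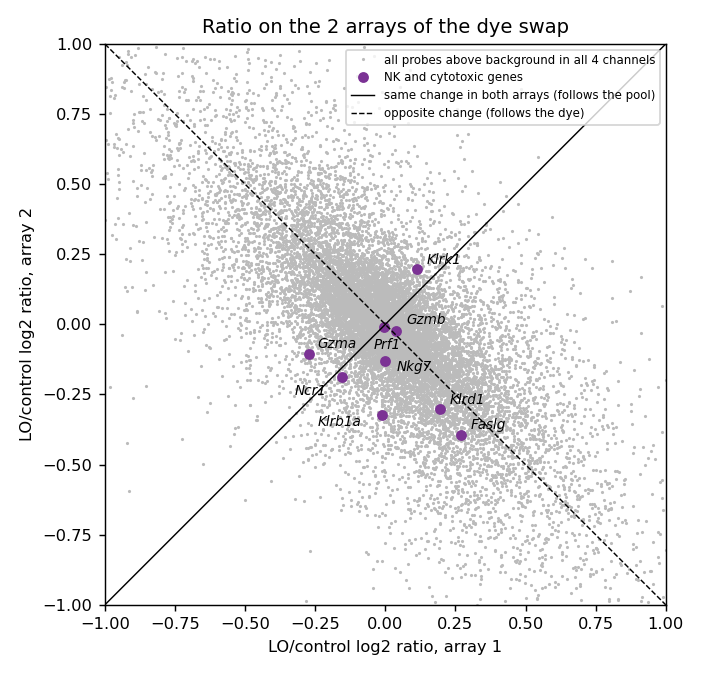
LO/control log2 ratio on array 1 (x axis) against array 2 (y axis) for the 9 genes (purple) and all 15371 probes above background in all 4 channels (grey), with 272 probes beyond the axes not drawn. The grey probes spread along the dashed line of opposite change, with a Pearson r of -0.70, and of the 9 genes Prf1 lies nearest to the solid line of equal change and Faslg farthest from it.

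Before the dyes were normalized, the background-subtracted Cy5 signal exceeded the Cy3 signal in 9 of the 9 genes on array 1 and in 8 of 9 on array 2. The Cy5/Cy3 ratio of the 9 genes then ran from 1.01 to 1.72 on array 1 and from 0.906 to 1.65 on array 2. These counts and ranges were not computed over all probes, so they cannot be read as a trait of the 9 genes.

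The other genes of the killing pathway were taken as 8 lists of 102 genes, of which 65 genes were matched by 73 probes. Of these probes, 54 (49 genes) were well above background in all 4 channels, 12 in no channel and 7 in some. The 54 probes had mean ratios from 0.748 to 1.15 with a median of 0.979, and 0 were past 1.5-fold in either direction. The error-model selection took 0 of the 73 probes. The LO pool was higher on both arrays in 5 of the 54 probes and lower on both in 10, beside 11.7% and 12.7% of all 15371 probes.

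Granule loading and release was covered by 10 genes above background in all 4 channels. Their mean ratios ran from 0.940 to 1.04. Srgn, the proteoglycan serglycin on which granzymes and perforin are packed, had 9422 and 9168 in the LO pool and 9138 and 8808 in the control pool, a mean ratio of 1.04. Gzmk, a further granzyme, had 1442 and 1476 in the LO pool and 1608 and 1500 in the control pool, a mean of 0.940. Unc13d, which primes granules for fusion, had a mean ratio of 1.03, and Stxbp2, its partner in membrane fusion, of 0.956. The granzymes Gzmc and Gzmf were well above background in no channel. Of the protease inhibitors that protect the killer cell, Serpinb9, which blocks granzyme B, had a mean ratio of 1.04, from 1.20 and 0.903. Serpinb6a had a mean of 0.987, from 1.04 and 0.940.

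The further NK receptors had 10 probes of 9 genes above background in all 4 channels, with a median ratio of 0.986. Klrc2, an activating partner of CD94, had the highest mean of this list at 1.15, from ratios of 1.49 and 0.890. Cd2, an adhesion receptor of T and NK cells, and Klrg1, an inhibitory receptor of mature killer cells, each had a mean of about 0.86. The arrays gave 1.20 and 0.615 for Cd2, and 0.804 and 0.927 for Klrg1. Fcgr3a (CD16, the receptor for antibody-coated targets) was 0.993, and Klre1, a receptor chain, was 1.02. The 2 probes of Klrc3 had means of 0.898 and 0.979. Ncr3, Klrh1, Ly49i4 and Ly49s7 were well above background in no channel.

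Adaptors and kinases below the receptors had 12 probes of 10 genes above background in all 4 channels, with a median ratio of 0.967. Tyrobp (DAP12), which carries the signal of activating NK receptors, had a mean ratio of 0.969, and the phosphatase Ptpn6 (SHP-1), which acts for the inhibitory receptors, 1.01. The kinases Zap70 and Syk and the adaptor Lat had a higher LO signal on each array, with means of 1.07, 1.05 and 1.08. Of the 3 probes of Inpp5d (SHIP1, a lipid phosphatase that dampens receptor signals), 2 had a lower LO signal on each array, with means of 0.944 and 0.939, and the other a mean of 1.0. Plcg2 had a mean of 0.934. Cd247, the zeta chain shared by the T cell receptor, NKp46 and CD16, had 175 and 122 in the LO pool and 166 and 229 in the control pool. The ratios of 1.05 and 0.532 lay on opposite sides of 1, and the mean of 0.748 (0.572 to 0.979) rests on array 2.

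Among transcription factors and cytokine receptors, 9 probes of 7 genes were above background in all 4 channels, with a median ratio of 0.985. Runx3, a transcription factor of cytotoxic lymphocytes, had a mean ratio of 0.985, from 0.892 and 1.09. Nfil3, which NK cells need to develop, had a mean of 0.960, from 1.21 and 0.763. Il15, the cytokine that keeps NK cells alive, had a mean of 1.09, from 1.32 and 0.896. Id2, which NK cells also need, was measured by 3 probes with means of 0.904, 0.908 and 0.991. The probe of Jak3, the kinase of the shared cytokine receptor chain, was among the brightest of the lists, with 255496 and 218185 in the LO pool, 229865 and 241163 in the control pool, and a mean ratio of 1.0.

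Secreted effectors had 4 genes above background in all 4 channels, and Ifng, Tnf, Lta and Tnfsf10 were well above it in no channel. The chemokine Ccl5, which killer lymphocytes store, had 16147 and 15757 in the LO pool and 15757 and 15885 in the control pool, a mean ratio of 1.01. Ccl3, Ccl4 and Xcl1 had means of 0.998, 0.958 and 1.01. On the side of the target, Fas had a mean of 0.892, from 1.16 and 0.684, for its probe above background in all 4 channels, and Fadd, the adaptor of the Fas receptor, had a mean of 1.08.

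The trafficking list had the lowest median ratio of the 8 lists, 0.887 over 4 genes, all with a mean below 1. S1pr5, a sphingosine phosphate receptor by which NK cells leave the tissues for the blood, had 212 and 199 in the LO pool and 252 and 267 in the control pool. Both LO signals of S1pr5 were below both control signals, beside 13.4% of all 15371 probes with such a gap in either direction. The ratios were 0.841 and 0.744, with a mean of 0.791 (0.630 to 0.993), and S1pr5 and Cd247 were the only 2 of the 54 probes whose interval left out 1, beside 0.787% of all 15371 probes. The integrin chain Itgal had 1.33 and 0.551, a mean of 0.857, and Itgam 1.31 and 0.642, a mean of 0.918. The chemokine receptor Cx3cr1 had 0.762 and 1.21, a mean of 0.961. Apart from S1pr5, the arrays gave opposite directions for the genes of the trafficking list.

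Markers of the other blood cells were read in the same way, with 22 probes of 21 genes above background in all 4 channels, and their part in the values above was not tested. The 5 T cell markers above background in all 4 channels were Cd3d, Cd3g, Cd5, Cd8a and Cd8b. Their mean ratios ran from 1.04 to 1.11, all above 1. Of these markers, 3 were higher with LO on both arrays, and the arrays gave opposite directions for Cd5 and Cd8a. Cd4 and Cd28 were well above background in no channel. Their summed signal was 39408 and 41401 in the LO pool, and 38318 and 38530 in the control pool. The 4 monocyte probes above background in all 4 channels had mean ratios from 0.872 (Lyz2) to 0.927 (Cd14), all below 1. Of these probes, 2 were lower with LO on both arrays, whereas those of Cd14 and Cd68 were not. The monocyte sums, most of which came from Lyz2, were 28274 and 30162 for LO against 32764 and 33998 for control. The 4 neutrophil probes ran from 1.04 to 1.09, and 2 of them were higher with LO on both arrays. Their sums, mostly from S100a8 and S100a9, were 31896 and 32555 against 31336 and 29784. Over all 15371 probes, 11.7% were higher and 12.7% lower with LO on both arrays. The 4 platelet probes ran from 0.994 to 1.05, and the 4 red cell probes from 0.941 to 1.0. The platelet sums, mostly from Pf4 and Gp1bb, were 229750 and 216244 against 221313 and 218791. The red cell sums were 1884960 and 1071770 for LO against 1259410 and 1730130 for control. Of the 4 red cell probes, those of Hbb and Alas2, which make up most of the sums, were higher in Cy5 on both arrays, and the 2 of Slc4a1, the red cell anion exchanger, were higher in Cy3 on both. The single B cell probe, Cd79b, had a mean ratio of 1.07, from signals of 1506 and 1420 against 1409 and 1318. None of the 22 probes was past 1.5-fold (0 of 22).

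**Figure D5:**
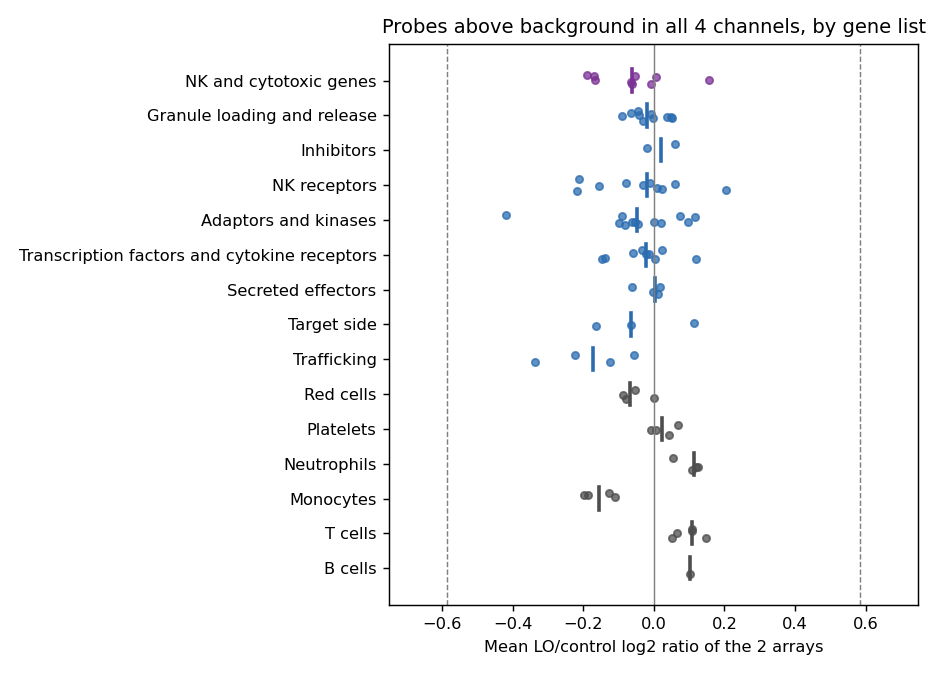
Mean LO/control log2 ratio of the 2 arrays for the 9 genes (purple), the 8 lists of the killing pathway (blue) and the markers of 6 blood cell types (grey), 1 point per probe above background in all 4 channels, with a bar at the median of each list and dashed lines at 1.5-fold. The 9 genes lie between -0.19 and 0.16, and the lowest point, Cd247, is at -0.42.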

How the data were processed

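Pooled whole blood RNA was measured on 2 arrays, a technical dye swap. The authors processed the scans with Agilent Feature Extraction 11.0.1.1. The deposited output holds the raw and background-subtracted intensity of each channel, the intensity processed by LOWESS, the log10 ratio of Cy5 over Cy3 with its error, an unadjusted error-model p-value per spot, and quality flags. A deposited value table equals the log10 ratio of the processed signals within 5e-07 (medians 0.0229 and 0.0157 on arrays 1 and 2); its scale, which the sources used here do not state, was found in this way.

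Log2 ratios of LO over control were computed from these. Control spots and the 338 features flagged as non-uniform or population outliers were left out, and spots of a probe were averaged (the p by its median). A probe was well above background where all its spots were. The dye part is the mean of the Cy5/Cy3 log ratios of both arrays. Intervals are 95% normal intervals from the software's error. Names came from a GRCr8 RefSeq table (10767 of 41009 probes), and no coordinates are given, since the array design uses rn4. The 10 genes and the lists were chosen with earlier results of these data known. All 9 matched genes are named, and of each pathway list up to 3 genes with the highest signal and up to 3 with the largest mean change; further ones, among them Klrb1b, the dim genes, and most cell type markers, were named after their values were seen. A further gene that this rule names is not reported here. No limit on a fold was needed for the 9 genes. Functions were tested on simulated data. Alternatives used limma 3.58.1 in R 4.3.3; the rest used Python 3.11.15, numpy 2.4.6 and pandas 2.3.3.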

Additional observations from a re-analysis of the deposited data

How the results depend on the processing

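The 9 genes had 0 past 1.5-fold and 0 past the error-model threshold under every alternative run for these counts: the value table, flagged spots kept, the median over spots, the brightest probe of a gene, filters on dim probes, thresholds of 0.05 and 0.001, limits of 1.3-fold and 2-fold, limits of 1.5 and 0.75 on the 2 arrays and, for the fold only, normexp with loess and median centring. Several of these could not change the counts. The value table holds the same ratios, no feature of the 9 genes was flagged, and no gene had a further probe. All 9 genes were above background in all 4 channels, so the filters on dim probes left them as they were. The limits of 0.001 and 2-fold are stricter than those that already took 0 genes. Over 81 alternative values for single genes the largest LO/control difference was 1.31-fold (Faslg on array 2 alone). Many of the 81 repeat the main value, since the value table, flagged spots, brightest probe and filter settings could not alter it. The median log2 ratio of the 9 genes, -0.06, was -0.05 by normexp with loess and -0.12 by median centring without loess, which moved the median of all probes above background in all 4 channels from -0.003 to -0.07. From each array alone it ran from -0.13 to 0.00052. The number of genes with the same direction on both arrays, 5, was 4 by normexp with loess and 2 by median centring; the cause was not tested. The mean log2 ratio of Gzmb, 0.01, was -0.05 by normexp with loess and -0.06 by median centring, and that of Prf1, -0.01, was 0.01 by normexp with loess. Naming probes by a separate gene name column was not run, since the scanner tables used here hold no such column. The 2 arrays, the pooled RNA and, for Klrk1, Ncr1 and Faslg, spot signals under 3 times the local background limit the precision.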
